A study of Homo sapiens with 6 samples.

Results

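Small nucleolar RNAs (snoRNAs) were examined on 6 whole-transcript arrays of HEK293 cells, an established line of human embryonic kidney origin. A row of the array table, called a transcript cluster because it summarises the probes for 1 transcribed locus, was taken where its annotation held a single gene symbol of the form SNORD or SNORA followed by digits. That gave 179 of 33297 clusters, of 176 genes: 115 clusters of box C/D snoRNAs (SNORD) and 64 of box H/ACA snoRNAs (SNORA, 61 genes). Another 74 clusters whose symbols include a snoRNA carry several symbols, as for the copies of U3, and they were left out. Of the clusters, 4 repeat the values of another row, among the copies of SNORA10 and SNORA15, so their values are not independent.

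The study set 3 control arrays against 3 treatment arrays, with 1 array for each labelled replicate. In the sample fields the controls carry the entry transient vector and the treated cells Neo vector, whereas the design text contrasts untreated HEK293 cells with cells transfected with the plasmid pCMV9. Since these statements differ, the groups are called control and treatment, and what the control cells received is not settled by the labels. Both groups are the same line, and no dose or time after transfection is given in the sources used here. Nothing in the labels says that replicates were separate cultures, so the tests measure spread among these arrays only, and that spread may be technical.

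snoRNAs are short non-coding RNAs of the nucleolus that pair with a target RNA and place a chemical mark on it. Box C/D snoRNAs guide 2'-O-methylation through the methyltransferase fibrillarin (FBL), and box H/ACA snoRNAs guide the conversion of uridine to pseudouridine through dyskerin (DKC1); most targets are ribosomal RNAs, and a few snoRNAs act in pre-rRNA cleavage. In human cells most snoRNAs are cut from introns of other genes, often genes of ribosomal proteins or of non-coding RNAs named small nucleolar RNA host genes (SNHG), so their production depends on transcription and splicing of the gene around them. In the RefSeq gene table (GRCh38.p14), which held all 176 symbols, the box C/D genes were 60 to 205 bases long with a median of 81, and the box H/ACA genes 123 to 236 with a median of 134. RNA was taken up on RNeasy columns, which are known to retain such short RNAs poorly, and the probes do not separate a mature snoRNA from a longer transcript that contains it. Which of these gave the signal was not tested.

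Many host genes start transcription at a run of pyrimidines, the terminal oligopyrimidine motif, which is known from genes of the translation machinery. The starts of host genes whose snoRNAs are described below are shown, chosen after values had been seen. They allow starts with and without the letters CTTT in the first 10 bases to be compared. EEF1B2 is shown at an upstream and a downstream start, and each other gene at a single start. Absence of CTTT therefore holds for the first 10 bases from the start shown and not for the gene. Each window holds 60 bases before and 20 bases from the annotated start in RefSeq (GRCh38.p14), read 5′ to 3′ on the strand of the gene, and capitals mark CTTT where it lies within the first 10 bases from the start. The windows of ribosomal protein and elongation genes are chr19:49487548-49487627 on the plus strand for RPL13A, chr22:39319604-39319683 on the minus strand for RPL3, chr2:206159549-206159628 on the plus strand for EEF1B2 at its upstream start and chr2:206159835-206159914 on the plus strand for EEF1B2 at its downstream start. Those of non-coding host genes are chr6:85678714-85678793 on the minus strand for SNHG5, chr20:38435309-38435388 on the minus strand for SNHG17, chr17:16438927-16439006 on the plus strand for SNHG29, chr1:173869026-173869105 on the minus strand for GAS5 and chr20:49278582-49278661 on the plus strand for ZFAS1, and that of RABGGTB is chr1:75786196-75786275 on the plus strand.
RPL13A: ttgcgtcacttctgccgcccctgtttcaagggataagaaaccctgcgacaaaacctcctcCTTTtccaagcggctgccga
RPL3: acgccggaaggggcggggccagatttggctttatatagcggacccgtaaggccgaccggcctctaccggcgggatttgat
EEF1B2, upstream start: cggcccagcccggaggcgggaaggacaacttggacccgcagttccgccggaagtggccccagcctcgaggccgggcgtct
EEF1B2, downstream start: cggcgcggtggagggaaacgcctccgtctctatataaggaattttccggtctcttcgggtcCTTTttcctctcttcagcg
SNHG5: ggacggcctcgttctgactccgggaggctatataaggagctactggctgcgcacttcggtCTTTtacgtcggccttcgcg
SNHG17: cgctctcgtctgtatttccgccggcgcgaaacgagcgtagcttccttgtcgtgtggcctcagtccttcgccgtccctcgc
SNHG29: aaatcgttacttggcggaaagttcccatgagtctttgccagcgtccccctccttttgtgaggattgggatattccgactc
GAS5: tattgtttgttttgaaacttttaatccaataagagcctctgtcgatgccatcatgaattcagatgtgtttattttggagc
ZFAS1: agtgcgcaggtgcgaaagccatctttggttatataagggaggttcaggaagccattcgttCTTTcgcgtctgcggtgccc
RABGGTB: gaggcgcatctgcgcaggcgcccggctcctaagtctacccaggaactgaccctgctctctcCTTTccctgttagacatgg
RPL13A, SNHG5, ZFAS1, RABGGTB and the downstream start of EEF1B2 hold CTTT within the first 10 bases from the start. The other windows shown do not. CTTT elsewhere in a window, as in those of RPL3, SNHG29 and GAS5, is in lower case and was not counted. Other runs of pyrimidines were not searched for, and a start without CTTT can hold one, as that of RPL3 does with ctct. Counted over the first start listed for each gene, the letters CTTT occurred in this stretch in 17 of 64 host genes with a window (26.6%), against 1223 of 27305 genes in the whole table (4.48%). Among hosts, CTTT stood in 8 of 11 ribosomal protein genes (72.7%), in 5 of 13 non-coding genes (38.5%) and in 4 of 40 others. On the opposite strand, read as AAAG, it occurred in 0 of 64 hosts and in 845 of all 27305 genes (3.09%). CTTT was the only motif searched, and a match is a description of the letters at the annotated start.

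No snoRNA passed the test between treatment and control. On the scale used throughout, log2(intensity + 16), limma with Benjamini-Hochberg adjustment called 0 of 115 box C/D clusters and 0 of 64 box H/ACA clusters at an adjusted p under 0.05, beside 124 of all 33297 clusters (0.372%). The smallest adjusted p was 0.557 among box C/D and 0.475 among box H/ACA clusters. Before adjustment, 0 box C/D clusters were higher and 7 lower in the treatment arrays at a p under 0.05 (6.09% lower), and 2 box H/ACA clusters were higher and 3 lower (3.12% and 4.69%). Over the whole table the same threshold took 5.01% of clusters as higher and 2.29% as lower. These unadjusted counts hung on single arrays: without control replicate 1 box C/D had 5 higher and 2 lower and box H/ACA 0 higher and 2 lower, and without treatment replicate 3 box C/D had 6 higher and 11 lower and box H/ACA 3 higher and 9 lower. With 3 arrays a group, the median standard error of a change was 0.219 for box C/D and 0.232 for box H/ACA clusters, beside 0.223 for all clusters. Differences of that size could not be resolved, and larger ones also went uncalled. SNORA20, for instance, had a change of -0.75 with an adjusted p of 0.475 in limma.

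The changes of the snoRNAs lay more often below 0 than above it, by small amounts. The log2 change, treatment minus control, was below 0 in 72 of 115 box C/D clusters (62.6%) and in 41 of 64 box H/ACA clusters (64.1%), beside 48.2% of all clusters. The median change was -0.070 for box C/D, with a range from -0.76 to 0.49, and -0.071 for box H/ACA, with a range from -0.75 to 0.59; over all clusters it was 0.012. With a plain log2, which widens the changes of dim clusters, the box C/D median was -0.24, and without control replicate 1 or treatment replicate 2 the box H/ACA median was 0.029 or 0.034. All 3 treatment arrays lay below all 3 control arrays in 12 box C/D clusters (10.4%) and 3 box H/ACA clusters (4.69%), against 7.10% of all clusters. They lay above in 3 box C/D clusters (2.61%) and 0 box H/ACA clusters, against 7.47% of all clusters. By this count the share of lower clusters is above that of all clusters for box C/D and under it for box H/ACA. The shares of higher clusters are under that of all clusters in both classes. These differences were not tested.

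**Figure D1:**
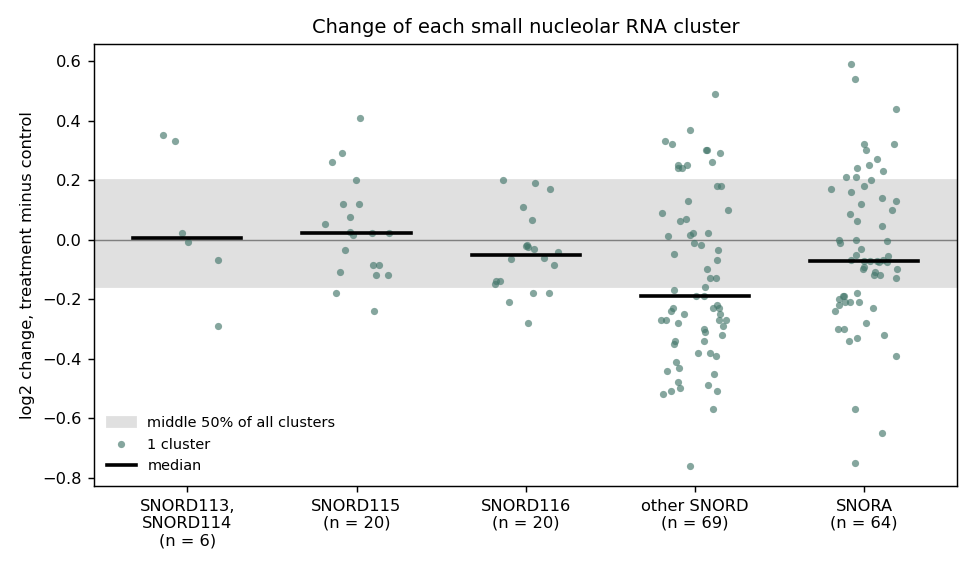
Log2 change (treatment minus control, on the log2(intensity + 16) scale) of each of the 179 snoRNA clusters, 1 point each, by family, with the median of the family as a bar and the middle 50% of all 33297 clusters as a grey band. On this scale the imprinted families SNORD115 and SNORD116 have medians of 0.023 and -0.050, and the other box C/D clusters have a median of -0.19 (-0.055 without control replicate 1) and reach down to -0.76.

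Much of this class was dim. Olfactory receptor genes, which are not known to be active in this line, served as a measure of background: the 95th percentile of their mean intensity was 54.8 over 381 clusters, and 110 of the 179 snoRNA clusters lay at or under it. These 110 included all 46 clusters of the imprinted families, 29 of the 69 other box C/D clusters and 35 of the 64 box H/ACA clusters. The olfactory receptor clusters had themselves a median change of 0.12, so the dim end of the scale sat slightly higher in the treatment arrays. The 49 snoRNA clusters at or above the table's median mean intensity of 82.6 had changes below 0 in 37 cases (75.5%), with a median of -0.19, and all clusters that bright had a median of -0.045 with 57.5% below 0. The other 130 snoRNA clusters had a median of -0.049. In bulk RNA such as this, fewer cells that make an RNA and less of it per cell cannot be told apart.

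The arrays of a group did not move together in these brighter snoRNAs. Relative to the mean of the controls, their median lay at 0.092, -0.10 and -0.080 on control replicates 1, 2 and 3, and at -0.27, -0.28 and 0.075 on treatment replicates 1, 2 and 3. Thus treatment replicates 1 and 2 were low by their medians, and treatment replicate 3 sat among the controls. Of the 49 clusters, 36, 37 and 21 lay below the control mean on treatment replicates 1, 2 and 3. On control replicates 1, 2 and 3 the counts were 12, 30 and 35. By this count control replicate 3 was close to treatment replicates 1 and 2. Treatment replicate 3 also had the lowest mean correlation with the other arrays over all clusters, 0.963. Without it the median change of the brighter snoRNAs was -0.28, and without control replicate 1 it was -0.10. The part of these arrays in the result was not tested.

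Among the box H/ACA snoRNAs, SNORA20, which lies within TCP1, a gene of the chaperonin that folds actin and tubulin, had the lowest p of the class. Its intensities were 64.6, 39.5 and 48.4 on the control arrays and 32.7, 20.2 and 18.1 on the treatment arrays, so the groups did not overlap. The means were 50.8 ± 12.8 and 23.7 ± 7.91 (SD, n = 3 each), and the log2 change was -0.75 ± 0.224 (SE; 95% interval -1.24 to -0.27), with an adjusted p of 0.475 in limma. Both means are within the olfactory receptor range. The cluster of TCP1 itself had a change of -0.070.

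SNORA71A and SNORA71C are copies of 1 family of H/ACA guides that sit in introns of the non-coding host gene SNHG17. SNORA71A read 137, 105 and 110 in control and 65.7, 64.3 and 76.6 in treatment, a change of -0.65 ± 0.199 (SE; 95% interval -1.08 to -0.22) with an adjusted p of 0.509. SNORA71C read 428, 353 and 306 in control and 206, 190 and 333 in treatment, a change of -0.57 ± 0.239 with an adjusted p of 0.674. All treatment arrays were under all control arrays for SNORA71A, while treatment replicate 3 of SNORA71C overlapped the controls. Another copy, SNORA71D, which lies within several annotated genes, had a change of -0.12. Copies of a family can share probe signal, and how far these do is not given in the sources used here. The cluster of SNHG17 went the other way in sign, from a mean of 652 to 720, a change of 0.13 ± 0.204.

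SNORA67, which lies within EIF4A1, the gene of an RNA helicase of translation initiation, read 308, 269 and 293 in control and 204, 251 and 201 in treatment. The groups did not overlap, and the change was -0.39 ± 0.198, with an interval from -0.81 to 0.037 that includes 0. SNORA23 and SNORA51, the latter in the gene of the box C/D core protein NOP56, had changes of -0.34 and -0.28. On the other side, the highest change of the class was that of SNORA70C, at 4.08, 8.82 and 13.8 in control and 40.5, 11.5 and 16.7 in treatment. Its change was 0.59 ± 0.269, and 0.29 without treatment replicate 1, and the groups overlapped. SNORA16B read 3.86, 3.18 and 13.8 against 21.4, 11.6 and 17.7, a change of 0.54 ± 0.229. Both lie deep in the background range, as all their intensities are under 54.8. SNORA54, SNORA37, SNORA70E and SNORA70B followed, with changes of 0.44, 0.32, 0.32 and 0.30. With 1 array left out these ran from 0.22 to 0.64, from 0.043 to 0.49, from 0.18 to 0.44 and from 0.15 to 0.39, and SNORA37 was at 0.043 without control replicate 3.

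Among the box C/D snoRNAs the lowest p belonged to SNORD59A, which lies in the gene of the beta subunit of mitochondrial ATP synthase, ATP5F1B. It read 52.6, 74.1 and 75.8 on the control arrays and 43.8, 42.1 and 17.8 on the treatment arrays, with means of 67.5 ± 12.9 and 34.5 ± 14.5 (SD, n = 3 each). The groups did not overlap, treatment replicate 3 was the lowest, and the change was -0.76 ± 0.249 (SE; 95% interval -1.29 to -0.22) with an adjusted p of 0.557. The ATP5F1B cluster had a change of 0.038. Next came SNORD49A, in an intron of the non-coding host SNHG29, which read 54.8, 37.9 and 52.6 against 27.4, 32.7 and 21.5, a change of -0.57 ± 0.208 with an adjusted p of 0.614. The SNHG29 cluster had means of 1464 and 1125 and a change of -0.37 ± 0.211. SNORD59A and SNORD49A are within the olfactory receptor range by their mean over all arrays.

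SNORD117, within the gene of the mRNA export helicase DDX39B, read 66.6, 56.4 and 63.7 against 47.6, 40.3 and 30.5, a change of -0.51 ± 0.204. SNORD36B, within RPL7A, a ribosomal protein gene, read 184, 128 and 149 against 125, 99.4 and 85.2, a change of -0.51 ± 0.216. In both the treatment arrays lay under all the controls, in SNORD36B by a narrow margin, and the adjusted p was 0.669 and 0.680. SNORD117 is within the olfactory receptor range, and SNORD36B is above it. SNORD96B, a dim copy on chromosome X and also within that range, had a change of -0.49. The higher side was led by SNORD13P2, a pseudogene of SNORD13, with 0.49 ± 0.272 and an adjusted p of 0.710. SNORD13P2 read 12.0, 4.74 and 18.7 against 36.7, 24.3 and 10.5, so its groups overlapped, and it is within the olfactory receptor range. SNORD74, one of the snoRNAs of GAS5, read 216, 148 and 144 in control and 215, 230 and 217 in treatment, a change of 0.37 ± 0.211. Control replicate 1 of SNORD74 equalled the treatment arrays, and only the other two controls were lower.

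**Figure D2:**
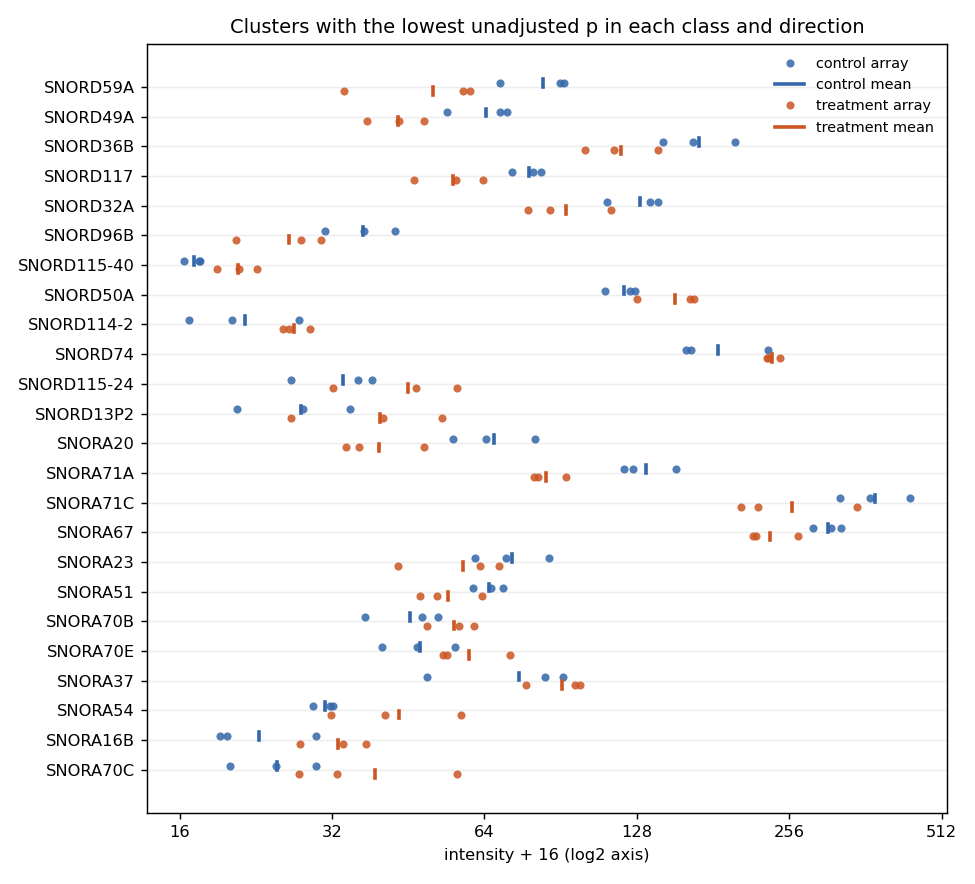
Intensity + 16 on a log2 axis for the 6 clusters with the lowest unadjusted p in each direction within each class, with 1 point per array and a bar at the arithmetic mean of each group (n = 3 arrays each). The control and treatment points of SNORA20, SNORA71A and SNORD59A stand apart, while those of SNORA16B and SNORA70C overlap near the low end of the scale.

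snoRNAs with a known role in processing the ribosomal RNA precursor were listed by role. SNORD13, which guides cytidine acetylation of 18S rRNA and has its own promoter, read 213, 232 and 163 in control and 114, 105 and 239 in treatment. Treatment replicates 1 and 2 were under every control and treatment replicate 3 was above them, and the change was -0.45 ± 0.275 with an adjusted p of 0.733. SNORD14C and SNORD14E, copies of U14 in introns of the chaperone gene HSPA8, pair with 18S rRNA and are needed for its maturation. SNORD14C read 145, 89.5 and 98.2 against 76.4, 73.9 and 76.5, a change of -0.44 ± 0.214 with an interval from -0.91 to 0.016. SNORD14E read 86.6, 38.7 and 60.2 against 57.8, 54.6 and 30.9, a change of -0.27 ± 0.262. The groups were apart for SNORD14C and overlapped for SNORD14E, and the HSPA8 cluster had a change of -0.012.

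RPL13A, a gene of the large ribosomal subunit, holds SNORD32A, SNORD33, SNORD34 and SNORD35A, methylation guides that have also been tied to lipid-induced cell stress. All 4 had changes below 0, with a median of -0.34, and none passed the test. SNORD32A read 125, 95.9 and 120 in control and 70.4, 62.0 and 97.9 in treatment, a change of -0.50 ± 0.216 with an adjusted p of 0.680. SNORD34 read 166, 150 and 151 against 90.3, 120 and 141, a change of -0.39 ± 0.209. Only SNORD34 had every treatment array under every control array. SNORD33 read 1702, 1984 and 1603 against 1248, 1167 and 1992, a change of -0.30 ± 0.234, and SNORD35A read 301, 356 and 300 against 204, 258 and 337, a change of -0.27 ± 0.221. In these, treatment replicates 1 and 2 were low and treatment replicate 3 was within or above the controls. Set against the mean of the controls, the 4 had a median of -0.59, -0.46 and -0.025 on treatment replicates 1, 2 and 3, and their median change was -0.52 without treatment replicate 3 and -0.22 without treatment replicate 1.

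snoRNAs that are often used as reference RNAs in quantitative PCR showed no difference that the test could call. SNORD44 read 108, 72.8 and 67.2 in control and 74.4, 75.6 and 44.9 in treatment, a change of -0.29 ± 0.236. SNORD95 and SNORD96A share the gene RACK1, which encodes a ribosome-bound scaffold protein, and had changes of opposite sign. SNORD95 read 418, 375 and 464 against 648, 424 and 441, a change of 0.24 ± 0.219, and 0.049 without treatment replicate 1. SNORD96A read 102, 87.5 and 59.7 against 58.0, 73.8 and 70.8, a change of -0.23 ± 0.219. SNORD61, in RBMX, read 14.8, 22.0 and 35.6 against 36.0, 32.4 and 24.3, a change of 0.25 ± 0.230. The groups overlapped in all 4.

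The imprinted families lay within the background range, where their changes depend on the offset added to the intensities. SNORD115 and SNORD116 are repeated box C/D genes on chromosome 15, expressed from the paternal allele in brain, and loss of the SNORD116 repeats is the main known cause of Prader-Willi syndrome. SNORD113 and SNORD114 form a like cluster on chromosome 14 that is expressed from the maternal allele. SNORD115 had 20 clusters with a median change of 0.023 and 8 below 0, SNORD116 had 20 with a median of -0.050 and 15 below 0, and SNORD113 and SNORD114 had 6 with a median of 0.0068. The SNORD115 median was -0.014 after quantile normalization and -0.033 after centring each array, so its sign is not settled. Nor is that of the SNORD113 and SNORD114 median, which was -0.043 and -0.049 in the same settings. With 1 array left out the SNORD113 and SNORD114 median ran from -0.074 to 0.082. The SNORD116 median was -0.38 on plain log2 values and -0.26 when only 1 was added, beside -0.28 for the other box C/D clusters in both settings. The highest single intensity in these 46 clusters was 40.5. The copies are near-identical in part and can share probe signal, so they do not count as separate measurements. Of the clusters whose groups did not overlap, SNORD115-34, SNORD115-40, SNORD116-16 and SNORD116-21 belong here, and SNORD115-34, for instance, read only 0.00175, 1.17 and 0.00155 in control and 3.82, 4.84 and 2.34 in treatment.

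The snoRNAs were then set beside the genes that contain them. Of the 176 genes, 160 lay within the span of exactly 1 other RefSeq gene, 14 within several and 2 within none, SNORD13 and SNORD32B. The sorting by kind of containing gene was chosen after values had been seen and is a description without a test. Outside the imprinted families, the 32 clusters within ribosomal protein genes had changes below 0 in 27 cases, with a median of -0.22. The 62 within other protein-coding genes had 35 below 0 and a median of -0.061, which was 0.020 without control replicate 1 and 0.0047 without control replicate 3, and 0.046 and 0.015 when treatment replicates 2 and 3, in turn, were left out. The 23 within non-coding genes had 13 below 0 and a median of -0.048. These kinds differed in brightness, with median control means of 86.6, 49.1 and 82.5 in the order given. Over clusters at or above the table's median intensity, ribosomal protein genes had a median of -0.23 with 14 of 15 below 0. Other protein-coding genes had -0.19 with 11 of 15 below 0, and non-coding genes -0.035 with 6 of 11.

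The array values behind the medians over all clusters of a kind were uneven. Relative to the control mean, clusters within ribosomal protein genes had medians of 0.23, -0.085 and -0.14 on the control arrays and -0.29, -0.29 and -0.11 on the treatment arrays. Control replicate 1 was thus high, control replicate 3 was slightly lower than treatment replicate 3, and without control replicate 1 the median change was -0.067 with 20 of 32 below 0. Within non-coding genes, treatment replicates 1, 2 and 3 lay at 0.16, 0.056 and -0.29, and the median change ran from -0.18 without treatment replicate 1 to 0.037 without control replicate 1. Both directions therefore occur among single arrays of the treatment group there.

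**Figure D3:**
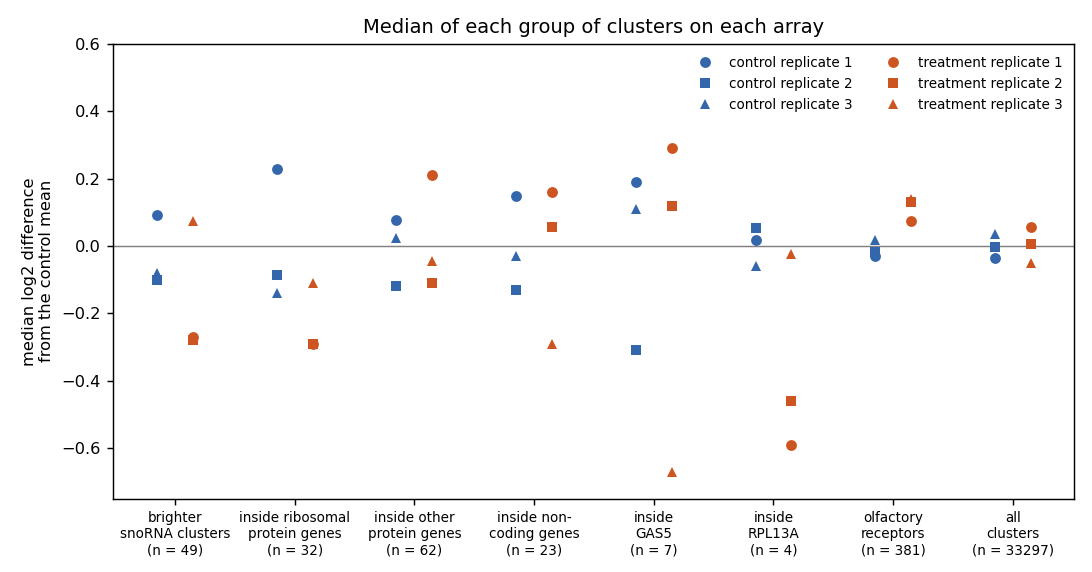
Median over each group of clusters of the log2 difference from the control mean, by array, with blue for control and orange for treatment and 1 marker shape per replicate number. Treatment replicates 1 and 2 lie low for the brighter snoRNAs and for those inside RPL13A, treatment replicate 3 lies lowest for those inside GAS5 at -0.67, and the medians of all clusters stay near 0.

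GAS5, a non-coding RNA whose introns hold a run of box C/D snoRNAs, contributed 7 clusters. Their changes were below 0 in 5 cases with a median of -0.13; SNORD44, SNORD79, SNORD77, SNORD78 and SNORD81 were at -0.29, -0.25, -0.19, -0.13 and -0.048, and SNORD74 and SNORD75 at 0.37 and 0.29. The median of the 7 relative to the control mean was 0.19, -0.31 and 0.11 on the control arrays and 0.29, 0.12 and -0.67 on the treatment arrays. The lowest value was that of treatment replicate 3, and without that array the median change was 0.21, while without treatment replicate 1 it was -0.33. SNORD28 and SNORD30, the 2 clusters of SNHG1, had changes of -0.13 and -0.035.

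SNHG5 holds SNORD50A and SNORD50B, box C/D snoRNAs that have been reported to bind the K-Ras protein. SNORD50A read 111, 94.8 and 108 in control and 150, 147 and 112 in treatment, a change of 0.33 ± 0.202 with an adjusted p of 0.735. SNORD50B read 97.5, 57.4 and 66.7 against 116, 104 and 47.2, a change of 0.18 ± 0.281. For SNORD50A every treatment array was above every control array, and for SNORD50B treatment replicate 3 was the lowest of all 6. ZFAS1, whose start also has CTTT, holds SNORD12C, which read 22.7, 22.1 and 30.4 against 34.9, 46.0 and 24.8, a change of 0.30 ± 0.217. The groups of SNORD12C overlapped, and it is within the olfactory receptor range. The ZFAS1 cluster had means of 636 and 741 and a change of 0.23 ± 0.202. RABGGTB, which encodes a subunit of a prenyl transferase, holds SNORD45A, SNORD45B and SNORD45C, with changes of -0.068, 0.18 and 0.30. Of these, SNORD45B is within the olfactory receptor range. RPL13A also has CTTT at its start, and its 4 snoRNAs lay on the other side of 0.

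A cluster of the containing gene itself was on the array for 79 of the snoRNA clusters. Of these 79 the snoRNA was below 0 in 52 and the gene in 53, both read from the same 6 arrays. Both were below 0 in 39 and above in 13, while 13 snoRNAs were below with the gene above and 14 above with the gene below. Since both lean below 0 on their own, nothing is read from the number that share a side. RPL23A and RPL3 had changes of -0.30 and -0.20, and all 3 snoRNA clusters of each were below 0, with medians of -0.34 and -0.28. Without control replicate 1 the median was -0.15 for the snoRNAs of RPL23A and -0.023 for those of RPL3. The reverse occurred at EEF1B2, a gene of translation elongation with a change of -0.53 ± 0.202 and an adjusted p of 0.650, where SNORD51 and SNORA41 stood at 0.32 and 0.18. SNORD51 read 53.1, 28.9 and 26.1 in control and 43.5, 37.9 and 62.8 in treatment, so its groups overlapped. The groups of SNORA41 overlapped too, and both snoRNAs are within the olfactory receptor range by their mean over all arrays. Of the snoRNA clusters of RPL23A and RPL3, 1 and 2 are in that range.

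**Figure D4:**
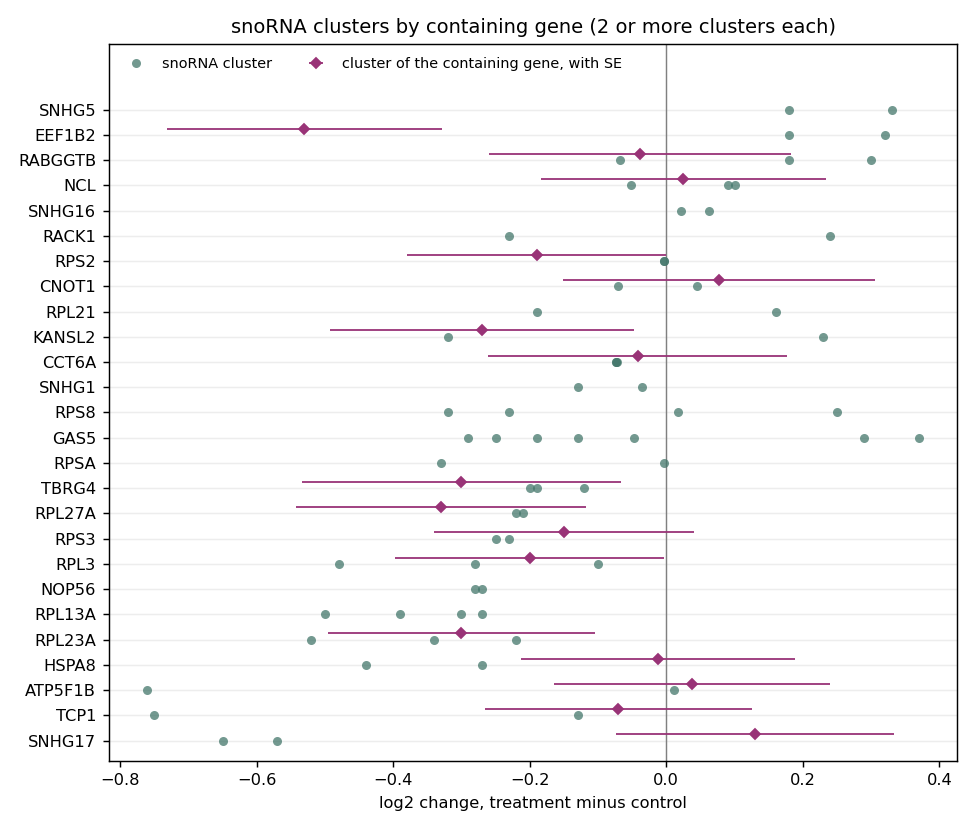
Log2 change of each snoRNA cluster (round points) by the gene that contains it, for genes with 2 or more snoRNA clusters, with the change of the containing gene's own cluster and its SE (diamonds) where the array has one. The snoRNAs of SNHG17, RPL23A and RPL13A lie to the left of 0 and those of SNHG5 and EEF1B2 to the right, while the EEF1B2 cluster itself lies at -0.53. The snoRNAs of EEF1B2 are within the olfactory receptor range.

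The proteins that snoRNAs assemble with were taken from lists of their roles, and 0 members passed the test in any of them. Of the box C/D core proteins 2 had a cluster of their own: FBL, the methyltransferase, had means of 1507 ± 273 and 1259 ± 58.5 (SD, n = 3 each) and a change of -0.24 ± 0.207, and NOP58 had a change of -0.032. Of the 4 box H/ACA core proteins, NHP2 had means of 723 and 504 and a change of -0.51 ± 0.196 with an adjusted p of 0.650, NOP10 had -0.31, DKC1, the pseudouridine synthase, -0.10, and GAR1 0.027. The 15 assembly factors had a median change of -0.030, with 10 below 0 and 5 above; PIH1D1, part of the R2TP complex that builds snoRNPs, had the lowest at -0.51 ± 0.201 and PHAX, an adaptor of small RNA transport, the highest at 0.19. The 25 proteins of the U3 processome, which carries out early pre-rRNA cleavage, had a median of -0.13, with 17 below 0 and 8 above, from -0.52 ± 0.201 for TBL3 to 0.28 for UTP3. The 15 RNA polymerase I genes had a median of -0.048, with 10 below 0, from -0.39 for TAF1C to 0.27 for POLR1A. These are values without a call, like those of the snoRNAs. Among all clusters at or above the median intensity, 57.5% were below 0. Relative to the control mean, the U3 processome median was 0.22, -0.020 and -0.36 on treatment replicates 1, 2 and 3. That of the assembly factors was 0.22, -0.0020 and -0.37, and that of RNA polymerase I 0.0032, 0.11 and -0.21. Treatment replicate 3 was thus the lowest treatment array in each of these lists.

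Over the whole series, median intensity per array lay between 77.2 and 84.2. Correlations between arrays were 0.956 to 0.985 within groups and 0.957 to 0.981 between groups, and over the 179 snoRNA clusters alone they were 0.925 to 0.972 and 0.937 to 0.967. Of the 8 markers of the line with a cluster, 7 had control means from 158 for LHX1 to 2095 for KRT8, and PAX2 was at 56.0 in control and 106 in treatment, a change of 0.76 with an adjusted p of 0.328. Markers of other cell types were not uniformly low. PTPRC and CD3E of leukocytes were at 23.4 and 25.1 in control and 17.1 and 23.3 in treatment, but CD14 was at 182 and 212. The endothelial markers PECAM1 and CDH5 were at 106 and 776 in control and 100 and 882 in treatment. Of the fibroblast markers COL1A1 was at 389 and 277, COL1A2 at 50.8 and 76.5, COL3A1 at 65.4 and 90.3 and DCN at 16.5 and 17.4. None of these passed the test, and their part in the snoRNA values was not tested.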

How the data were processed

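Each of the 6 HEK293 arrays (Affymetrix Gene 1.0 ST, RNeasy total RNA, per the labels' protocols) gave 1 deposited intensity per transcript cluster, on a linear scale as its range shows. The submitters' processing notes name Partek; the sources used here do not state the background correction, normalization, probe summary or genome build. Here 16 was added to each intensity before log2, which understates changes of dim clusters. limma 3.58.1 (lmFit, eBayes; R 4.3.3) compared 3 treatment with 3 control arrays, two-sided, with Benjamini-Hochberg adjustment across the 33297 clusters and a threshold of 0.05. Only 3 arrays a group bound the precision. Gene symbols came from the 2016 platform annotation. Named are the 6 snoRNAs of lowest unadjusted p per class and direction and snoRNAs listed by role; others named were chosen after their values were seen. The members and lists were chosen with earlier results of these data known. Containing genes were found by span in the RefSeq gene table (GRCh38.p14); strand was not checked. A containing gene with several clusters was represented by the brightest. snoRNA sequences were not used here. Alternatives were plain log2, other offsets, quantile normalization, centring, filters on dim clusters, other eBayes settings, the replicate number as a block, and leaving out each array. The fit was tested on simulated data.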

Additional observations from a re-analysis of the deposited data

How the results depend on the processing

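The count of 0 called snoRNAs, in both classes, held in every alternative fit. Over all clusters the count of 124 became 40 with plain log2 and 58 with an offset of 1, and 69 to 129 when 1 array was left out (69 without control replicate 1, 82 without treatment replicate 2). No label says whether the replicate numbers pair the arrays. Deviations from the group mean correlated at -0.166, 0.0839 and -0.356 for same-numbered arrays, and at 0.363 for control replicate 3 with treatment replicate 1. Deviations from a mean of 3 arrays are tied to each other, so these values cannot settle whether arrays were paired. With the replicate number as a block 0 SNORD, 0 SNORA and 105 of all clusters were called. The box C/D median of -0.070 became -0.24 with plain log2, -0.23 with an offset of 1, -0.22 over the 31 clusters at or above the median intensity and -0.23 over the 57 outside the lowest quartile, and it was -0.11 to -0.032 with 1 array left out. The box H/ACA median of -0.071 became -0.19 over the 18 clusters at or above the median intensity and ran from -0.12 to 0.034 with 1 array left out, above 0 without treatment replicate 2 (0.034) or control replicate 1 (0.029). Unadjusted, the 7 lower box C/D clusters became 2 without control replicate 1 or treatment replicate 2, 3 without control replicate 3 and 11 without treatment replicate 3; the 2 higher box H/ACA clusters became 0 without control replicate 1 or 2 or treatment replicate 1. Of 41 named clusters 37 kept their sign; with 1 array left out SNORD81 ran from -0.33 to 0.37, SNORD78 from -0.34 to 0.21, SNORD30 from -0.14 to 0.11 and SNORD28 from -0.27 to 0.011. The cause of these shifts was not tested. The 110 clusters in the olfactory receptor range limit what can be read of dim snoRNAs.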

Other observations

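Other short RNAs on the same arrays were read in the same way, and 0 clusters were called in each class. The spliceosomal, Y and vault RNA genes (symbols RNU, RNY and VTRNA), whose RNAs act in splicing or bind Ro and vault particles, had 31 clusters with a median change of -0.29 and 24 below 0, and a smallest adjusted p of 0.211 in limma. Some rows repeat: over the 23 clusters without repeated rows the median was -0.14 with 16 below 0. With 1 array left out it ran from -0.49 without treatment replicate 3 to -0.13 without treatment replicate 2. Relative to the control mean their median was -0.35 and -0.51 on treatment replicates 1 and 2 and 0.19 on treatment replicate 3, so the same array as for the brighter snoRNAs sat above the others. Small Cajal body RNAs, which guide the same marks on spliceosomal RNAs, had 19 clusters with a median of 0.0096 that was -0.032 after quantile normalization and -0.046 after centring, and below 0 whichever array was left out (-0.077 to -0.0024). MicroRNA genes had 179 clusters with a median of 0.13 and 53 below 0, beside an olfactory receptor median of 0.12, and their treatment medians were 0.040, -0.0013 and 0.31. Without treatment replicate 3 the microRNA median was 0.034, with 81 below 0.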
